A study of Mus musculus with 6 samples.

Results

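Klf2, Klf4 and Nos3 are genes that endothelial cells switch on when blood flows steadily over them, and H3K9ac at their peaks is described here in lung endothelial cells of mice with and without cystathionine gamma-lyase (CSE). All peaks that the authors' annotation assigns to one of the 3 gene symbols were taken, whether at the start of the gene or far from it. There were 9 such peaks among 17901 in all, of which 2 belong to Klf2, 5 to Klf4 and 2 to Nos3. H3K9ac, acetyl groups on lysine 9 of histone H3, marks promoters and enhancers that are in use. It was mapped by CUT&RUN, in which a nuclease tethered by an antibody releases the marked DNA for sequencing. The groups were CSE-KO (Cre-positive, 3 libraries) and WT (Cre-negative, 3 libraries), both of endothelial cells isolated from mouse lung. The labels used here give neither the promoter that drives Cre nor the age of the mice. They also do not say whether each library is from its own animal, so the p-values measure spread among these libraries alone, which may be technical in origin. CSE makes cysteine from cystathionine and is encoded by Cth. Among the peaks analysed here none is assigned to Cth, so its loss was not checked.

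Laminar shear stress is sensed at the endothelial surface and passed through the kinases MEKK3, MEK5 and ERK5 to MEF2 transcription factors, which bind the Klf2 and Klf4 promoters. KLF2 and KLF4 are zinc-finger transcription factors with overlapping targets that keep the endothelium quiescent, anti-inflammatory and anticoagulant. Nos3, one of the genes they induce, encodes endothelial nitric oxide synthase (eNOS), whose product relaxes vessels.

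The promoter sequences of Klf2 and Klf4 from RefSeq (GRCm38.p6, 250 bases before to 50 bases after the start) are shown because each gene has an H3K9ac peak at or next to this window. Capitals mark GGGCGG on either strand, the core of an SP1 site, and in Klf2 also the MEF2 element.
Klf2 promoter, chr8:72318812-72319111, plus strand: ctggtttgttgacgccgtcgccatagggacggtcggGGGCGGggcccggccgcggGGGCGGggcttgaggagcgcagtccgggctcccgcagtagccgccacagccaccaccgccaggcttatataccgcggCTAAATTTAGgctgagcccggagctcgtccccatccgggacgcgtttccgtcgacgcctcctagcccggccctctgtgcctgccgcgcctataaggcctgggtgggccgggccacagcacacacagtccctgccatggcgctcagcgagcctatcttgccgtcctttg
Klf4 promoter, chr4:55532426-55532725, minus strand: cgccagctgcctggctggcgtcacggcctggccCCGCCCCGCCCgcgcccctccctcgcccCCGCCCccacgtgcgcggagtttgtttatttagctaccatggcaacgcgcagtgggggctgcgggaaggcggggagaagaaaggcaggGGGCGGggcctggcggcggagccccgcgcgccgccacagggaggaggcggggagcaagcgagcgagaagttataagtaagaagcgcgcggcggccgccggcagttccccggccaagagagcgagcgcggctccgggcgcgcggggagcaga

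The Klf2 window held 1 location that matches the MEF2 element, CTAAATTTAG, which reads the same on both strands and runs from 118 to 109 bases upstream of the start. The Klf4 window held none, and 3.19% of 32851 promoter windows of the same length held at least 1. GGGCGG was found at 2 places in Klf2 and 4 in Klf4, against 35.7% of all windows with at least 1. CACCC, the core that KLF factors read, lay once on the minus strand of Klf2, 19 bases upstream of the start, and was not among the letters of the Klf4 window (57.5% of all windows held it). TATAAA was in neither window and in 13.6% of all windows. Both strands were searched, and CACCC and GGGCGG did not overlap at any of these places. Both promoters are rich in CpG, with 32 CpG in Klf2 and 40 in Klf4, against a median of 7 over all windows, and a GC content of 69.3% in Klf2 and 74.3% in Klf4, against a median of 52.7%.

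The peaks lie differently about the 3 starts. At Klf2 the start peak (chr8:72318950-72319546, GRCm38) covers the start, from 112 bases upstream to 484 bases downstream, is annotated as intron 1 and a CpG island, and shares 162 bases with the promoter window printed above. Its upstream edge falls inside the MEF2 element, 4 bases of which it covers. At Klf4 the start peak (chr4:55532794-55533545) does not reach the start. It runs from 1070 to 319 bases upstream, 68 bases beyond the end of the printed window, and overlaps the noncoding RNA gene Gm12506. At Nos3 the start peak (chr5:24364750-24365474) covers the start, from 66 bases upstream to 658 bases downstream, and is annotated as intron 1.

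The distal peaks are all intergenic and all upstream. The Klf2 peak 23.3 kb upstream (chr8:72295225-72296220) lies between Ap1m1, whose end is 37.8 kb away, and Klf2 itself. The Nos3 peak 3.7 kb upstream (chr5:24360953-24361326) lies between Nos3 and Kcnh2, a potassium channel gene 9.27 kb away. Klf4 has 4 distal peaks, at 119.3 kb (chr4:55651276-55652177, a CpG island), 189.6 kb (chr4:55721628-55722589), 200.6 kb (chr4:55732541-55733666) and 494.5 kb (chr4:56026832-56027161) from its start. No other protein-coding gene lies between them and Klf4, and the next one on the far side, Actl7b, is 713 kb beyond the most distant peak. Their assignment to Klf4 is by nearest start alone, and the number of Klf4 peaks, 5, was higher than that of 96.6% of the genes in the table. The table holds 5 of the 9 numbered peaks between the first and the last Klf4 peak, and the other 4 were not analysed here. Over the whole table, 75.0% of the peak numbers up to 23867 are held, so such gaps are not particular to Klf4. None of the peaks used here overlaps the transcribed part of Klf4.

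Summed over all peaks analysed here, the libraries held 679938 to 1173016 counts in CSE-KO and 313610 to 676056 in WT. WT replicate 2 had the fewest, and the sequencing depth itself is not given. Single peaks of the 3 genes held 3 to 104 counts per library, and the standard error (SE) of their log2 fold changes was 0.25 to 0.48. Levels are given as CPM, the counts of a peak relative to this sum over all peaks of its library, after TMM scaling. Endothelial markers were present, with a peak at 18 of 18 genes, of which 10 had a promoter peak. Their summed level, over 48 peaks, was 3349 to 3709 CPM in CSE-KO and 3666 to 3849 in WT. Among markers of other lung cells, 0 of 8 mural, 1 of 8 fibroblast, 1 of 10 leukocyte and 5 of 10 epithelial genes had a peak. The summed level was 21.9 to 50.8 CPM in CSE-KO and 32.3 to 46.0 in WT for fibroblast genes. It was 21.2 to 23.4 and 16.3 to 38.8 CPM for leukocyte genes, and 349 to 391 and 374 to 400 CPM for epithelial genes, in CSE-KO and in WT. These sums are over 1 fibroblast, 1 leukocyte and 10 epithelial peaks, so they grow with the number of peaks and do not measure purity. The strongest peak was distal at each of the 5 epithelial genes, Epcam, Cdh1, Krt8, Krt18 and Foxa2, of which 1 also had a promoter peak. Sftpc, Sftpb, Nkx2-1, Hopx and Ager had no peak. The strongest peak was also distal at the endothelial genes Kdr, Flt1, Erg, Sox17, Sox18, Sox7, Cldn5 and Mmrn2. The part of other cell types in the results was not tested.

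H3K9ac at Klf2, Klf4 and Nos3 did not differ detectably between CSE-KO and WT cells. Of the 9 peaks, 8 passed the filter on low counts and were tested, and 0 rose or fell at an adjusted p under 0.05 (edgeR quasi-likelihood test, Benjamini-Hochberg over all tested peaks). Over all 16134 tested peaks 0.0868% were called, 14 in number (0.0248% higher and 0.062% lower in CSE-KO), so a count of 0 among 8 is near the background. The count of 14 was 6 without CSE-KO replicate 1, 8 without CSE-KO replicate 3 and 7 without WT replicate 3. At an unadjusted p under 0.05 edgeR also gave 0 of the 8, against 7.08% of all tested peaks, and DESeq2 and limma-voom called 0 after adjustment. The smallest unadjusted p of the 8 was 0.24, and adjusted p ran from 0.85 to 0.99. The CSE-KO and WT libraries overlapped in CPM at all 9 peaks, while the groups did not overlap at 13% of all tested peaks, 6.09% with CSE-KO above WT.

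**Figure D1:**
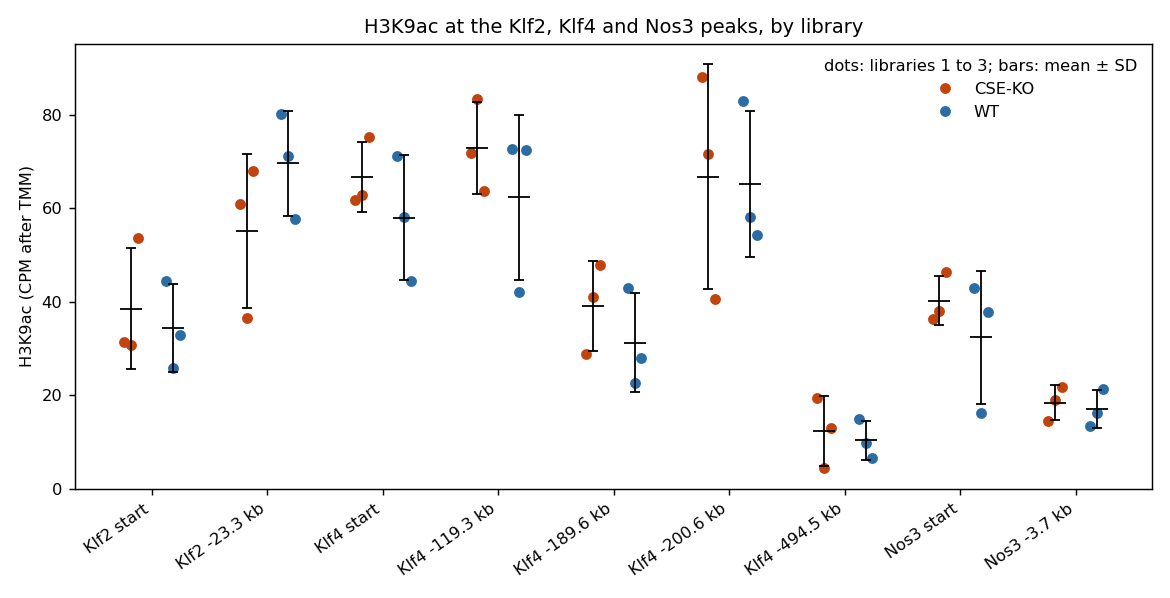
H3K9ac in CPM after TMM scaling (y axis) at each of the 9 peaks (x axis, by gene and distance from the start), with CSE-KO in red left of WT in blue. Dots are single libraries, side by side in replicate order, and bars are mean ± SD of 3 libraries; the groups overlap at every peak, and the lowest levels are at Klf4 494.5 kb upstream and Nos3 3.7 kb upstream.

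Klf2, whose promoter window carries the MEF2 element, was measured at 2 peaks. At its start the level was 31.3, 30.7 and 53.6 CPM in CSE-KO replicates 1 to 3, against 44.5, 25.9 and 32.9 CPM in WT replicates 1 to 3. CSE-KO replicate 3 was the highest library and WT replicate 2 the lowest. The means were 38.5 ± 13.0 and 34.4 ± 9.41 CPM (SD, n = 3 each), with a log2 fold change of 0.09 (95% interval -0.59 to 0.77, edgeR adjusted p = 0.98). The distal Klf2 peak had 60.9, 36.5 and 68.1 CPM in CSE-KO, against 80.1, 71.1 and 57.6 CPM in WT. CSE-KO replicate 2 was the lowest of the 6 and WT replicate 1 the highest. The means were 55.2 ± 16.5 CPM in CSE-KO and 69.6 ± 11.3 CPM in WT, with a log2 fold change of -0.32 (95% interval -0.86 to 0.22, edgeR adjusted p = 0.85). It was the peak with the smallest p of the 8 and the single one below 0.

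Klf4, the close relative of Klf2 with largely shared endothelial targets, was measured at 5 peaks. At its start the level was 61.8, 62.9 and 75.3 CPM in CSE-KO, against 71.2, 58.2 and 44.4 CPM in WT. CSE-KO replicate 3 was the highest and WT replicate 3 the lowest, and WT replicate 1 lay above CSE-KO replicates 1 and 2. The means were 66.6 ± 7.52 CPM in CSE-KO and 57.9 ± 13.4 CPM in WT, with a log2 fold change of 0.19 (95% interval -0.34 to 0.72, edgeR adjusted p = 0.92).

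The peak 119.3 kb upstream of Klf4 had 71.9, 83.3 and 63.7 CPM in CSE-KO, against 72.7, 42.0 and 72.4 CPM in WT. The low value was that of WT replicate 2, and the other WT libraries lay within the range of CSE-KO. Its log2 fold change was 0.16 (95% interval -0.34 to 0.67, edgeR adjusted p = 0.93). The peak 189.6 kb upstream had 28.8, 40.9 and 47.8 CPM in CSE-KO, against 43.0, 22.6 and 28.0 CPM in WT, and here too WT replicate 2 was lowest. Its log2 fold change was 0.24 (95% interval -0.45 to 0.92, edgeR adjusted p = 0.93). The peak 200.6 kb upstream had 88.0, 71.6 and 40.6 CPM in CSE-KO, against 83.0, 58.2 and 54.3 CPM in WT. Both its highest and its lowest library were CSE-KO. The log2 fold change was 0.04 (95% interval -0.50 to 0.58, edgeR adjusted p = 0.99). The peak 494.5 kb upstream held 23, 3 and 9 counts in CSE-KO, against 10, 3 and 4 counts in WT, and did not pass the filter. It is the weakest and the shortest of the 9, at 330 bp.

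Nos3, the gene of eNOS, was measured at 2 peaks. At its start the level was 36.4, 38.0 and 46.3 CPM in CSE-KO, against 43.0, 16.2 and 37.8 CPM in WT. WT replicate 2 stood below the other 5 libraries, and its value rests on 5 counts. The means were 40.2 ± 5.34 CPM in CSE-KO and 32.3 ± 14.2 CPM in WT, with a log2 fold change of 0.21 (95% interval -0.47 to 0.88, edgeR adjusted p = 0.94). The log2 fold change was -0.02 without WT replicate 2. The upstream Nos3 peak had 14.4, 19.0 and 21.7 CPM in CSE-KO, against 13.3, 16.2 and 21.4 CPM in WT, so the libraries of the groups interleave. Its log2 fold change was 0.08 (95% interval -0.87 to 1.04, edgeR adjusted p = 0.99).

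Of the 8 fitted values 7 lay above 0 and 1 below; their median was 0.13 on the log2 scale, while 49.9% of all tested peaks lay above 0 with a median of -0.00034. The sign held under every alternative at 3 peaks, the distal Klf2 peak and the Klf4 peaks at 119.3 and 189.6 kb, and turned under at least 1 alternative at the other 5. Its size moved at those 3 peaks too. Leaving out CSE-KO replicate 2 gave a log2 fold change of -0.12 at the distal Klf2 peak, and leaving out CSE-KO replicate 3 gave -0.47. At the Klf4 peak at 119.3 kb it was 0.0041 if WT replicate 2 was dropped and 0.27 if WT replicate 1 was dropped. At the Klf4 peak at 189.6 kb it was 0.076 if CSE-KO replicate 3 was dropped and 0.56 if WT replicate 1 was dropped. For 7 of the 8 peaks the 95% interval lay inside a 2-fold change in either direction, and for the upstream Nos3 peak it did not. WT replicate 2, the library with the fewest counts in peaks, was the lowest at 4 of the 9 peaks. The libraries were scaled to each other over all peaks, so a change of the mark at all peaks alike could not be seen, and less mark per cell cannot be told apart from fewer cells that carry it.

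**Figure D2:**
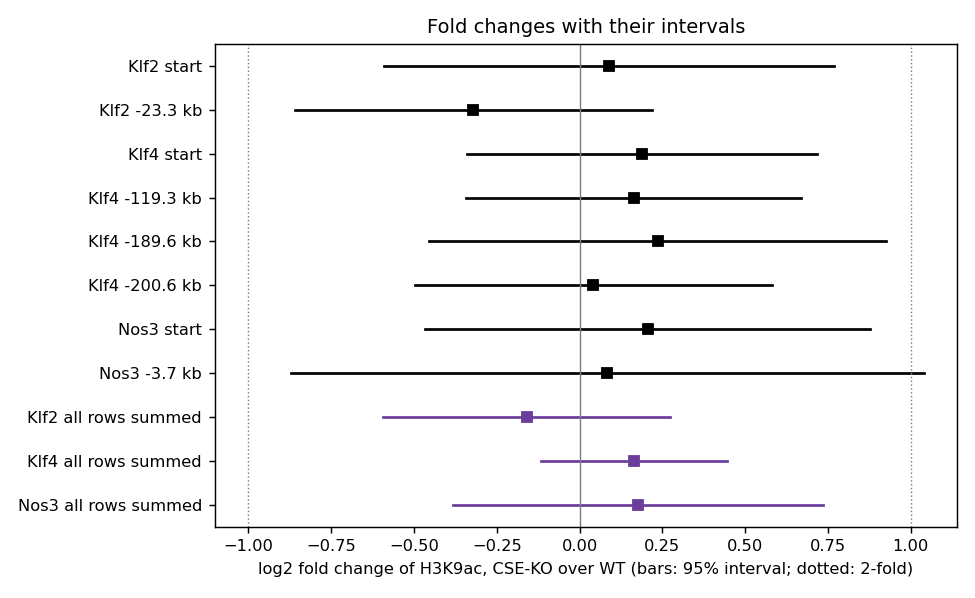
Log2 fold change of H3K9ac, CSE-KO over WT (x axis), for the 8 tested peaks (black) and for the counts summed over all peaks of a gene (purple), with 95% intervals from edgeR. Every interval includes 0, and that of the upstream Nos3 peak crosses the dotted line of a 2-fold change.

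Summing all peaks of a gene gave more counts per value and narrower intervals. Klf2 summed to 92.9, 67.3 and 122 CPM in CSE-KO, against 125, 96.4 and 90.3 CPM in WT. The highest library was WT replicate 1 and the lowest CSE-KO replicate 2, and the fold was 0.895 (95% interval 0.663 to 1.21, edgeR adjusted p = 0.94 over 10569 genes). Klf4 summed to 272, 263 and 241 CPM in CSE-KO, against 285, 190 and 205 CPM in WT. All CSE-KO libraries lay between WT replicates 1 and 3, with a fold of 1.12 (95% interval 0.922 to 1.36, edgeR adjusted p = 0.88), the narrowest interval of the 3 genes. Nos3 summed to 51.1, 57.1 and 68.3 CPM in CSE-KO, against 56.4, 32.1 and 59.1 CPM in WT, with a fold of 1.13 (95% interval 0.768 to 1.67, edgeR adjusted p = 0.95). None of the 3 genes was called, where 0.123% of all summed genes were, and at an unadjusted p under 0.05 none passed in edgeR either, where 6.88% of all did. DESeq2 and limma-voom called none of the 3. The groups overlapped for each of the 3 genes, while they did not overlap for 12.5% of all summed genes.

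The balance between start and distal peaks does not depend on the scaling of the libraries. With 3 against 3 libraries the exact test cannot give a p below 0.10, so it could not pass 0.05 and the shares are given as values. At Klf2 the start peak held 33.9%, 45.7% and 44.0% of the gene's counts in CSE-KO, against 35.7%, 26.7% and 36.4% in WT. The means were 41.2% ± 6.35 in CSE-KO and 32.9% ± 5.42 in WT (SD, n = 3 each; p = 0.30 in an exact two-sided permutation test). At Klf4, where the 4 distal peaks outweigh the start, the share was 26.0% ± 4.61 in CSE-KO and 25.7% ± 4.50 in WT (SD, n = 3 each; p = 0.90, same exact test). At Nos3 the start peak held most of the counts, 68.8% ± 2.58 in CSE-KO and 63.4% ± 13.2 in WT (SD, n = 3 each; p = 0.70, same exact test). All 3 adjusted values were 0.90 (Benjamini-Hochberg over the 3 exact tests). The difference at Klf2 was 8.30 percentage points and ran from 5.18 to 11.9 with single libraries left out.

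Set per length, the strongest of the 9 peaks was the one at the Klf4 start, with 88.6 ± 10.0 CPM per kb in CSE-KO and 77.0 ± 17.8 in WT (SD, n = 3 each). The Klf4 peak at 119.3 kb followed in CSE-KO with 80.9 ± 10.9 CPM per kb and had 69.1 ± 19.5 in WT. The distal Klf2 peak, sixth in CSE-KO with 55.4 ± 16.6 CPM per kb, was second in WT with 69.9 ± 11.4. The Klf2 start had 64.5 ± 21.8 CPM per kb in CSE-KO and 57.6 ± 15.8 in WT, and the Klf4 peak at 200.6 kb 59.3 ± 21.4 and 57.9 ± 13.9. The Nos3 start had 55.5 ± 7.37 CPM per kb in CSE-KO and 44.6 ± 19.7 in WT, and the upstream Nos3 peak 49.1 ± 9.92 and 45.4 ± 10.9. The Klf4 peaks at 189.6 kb (40.7 ± 10.0 in CSE-KO, 32.4 ± 11.0 in WT) and 494.5 kb (37.3 ± 22.9 and 31.4 ± 12.6) came last in both groups. In either group each peak overlapped the next one in the order over its 3 libraries, so neighbours in the order were not set apart by more than their spread.

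Against the table, the Klf4 start was denser than 83.6% of 8021 promoter peaks, the Klf2 start than 53.9% and the Nos3 start than 31.8%, as means over the 6 libraries. Among 9880 distal peaks, the Klf4 peak at 119.3 kb was denser than 89.5%, the distal Klf2 peak than 79.1%, the Klf4 peak at 200.6 kb than 73.6%, the upstream Nos3 peak than 51.7%, and the Klf4 peaks at 189.6 and 494.5 kb than 22.1% and 15.5%. The Klf4 peak at 119.3 kb thus ranked at least as high among distal peaks as the Klf4 start did among promoter peaks.

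**Figure D3:**
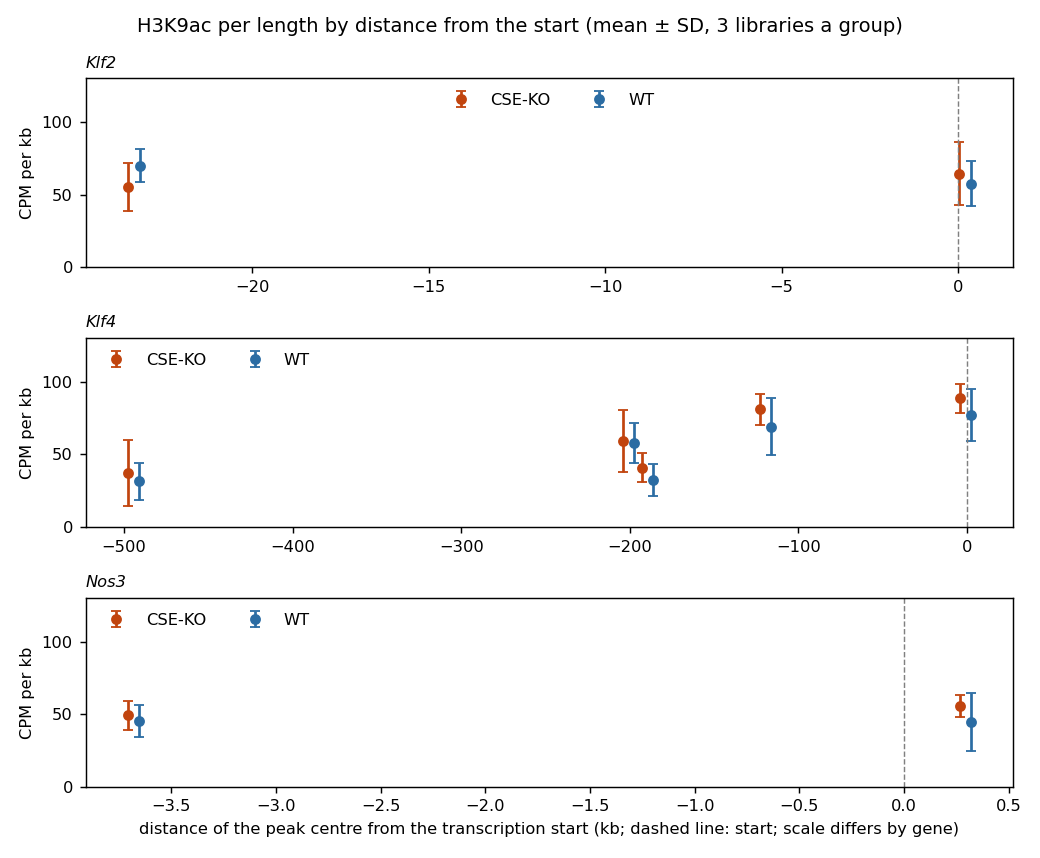
H3K9ac in CPM per kb of peak (y axis, mean ± SD of 3 libraries) against the distance of the peak centre from the transcription start (x axis, kb, on a different scale for each gene), with CSE-KO in red and WT in blue, set slightly apart. The 2 densest CSE-KO values are those of the Klf4 start and of the Klf4 peak at 119.3 kb, and the bars of the groups overlap at every peak.

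The peaks whose variation over the 6 libraries was most like that of each gene's peak with the highest mean count were found by the root mean square difference of log2 CPM after centring each peak on its mean, among 8099 peaks of at least median count. For the distal Klf2 peak these were a promoter peak of Chd8, a chromatin remodeller, one at Mir3077 and a distal peak upstream of Akap2, at 0.09, 0.10 and 0.11, where the median of all compared peaks was 0.41. For the Klf4 peak at 119.3 kb they were the promoter peaks of Ythdf3, a reader of methylated RNA, and Dtwd2, and a distal peak assigned to Tcf4, at 0.05, 0.06 and 0.06 (median 0.38). For the Nos3 start they were promoter peaks of Alkbh3, Dhrs11 and Agfg2, at 0.05, 0.08 and 0.09 (median 0.51). With 6 libraries and 8099 peaks some peaks come close whatever they are, so these values describe likeness alone.

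Around the 3 genes, 5 lists of the flow response held 85 genes, of which 64 had a peak, and the peak with the highest mean count stood for each gene. None of the 64 rose or fell at an adjusted p under 0.05 (edgeR), where 0.0664% of 10536 genes did on the same rule, and DESeq2 and limma-voom called none. At an unadjusted p under 0.05 edgeR gave 5 of the 64, against 6.31% of all genes. Above 0 lay 23 and below 0 lay 41 (median log2 fold change -0.07), while 47.1% of all genes lay above 0 with a median of -0.02.

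The sensors of flow and their junctional partners lay mostly below 0, with 13 of 15 (median log2 fold change -0.14, none called). Cdh5, the cadherin of endothelial junctions and part of the mechanosensory complex, had the smallest p, with 190 ± 2.29 CPM in CSE-KO and 250 ± 29.6 CPM in WT (SD, n = 3 each; log2 fold change -0.38, SE 0.15, edgeR adjusted p = 0.62). S1pr1, the sphingosine-1-phosphate receptor, had a log2 fold change of -0.24 (SE 0.22), and Piezo1, a mechanically gated cation channel, -0.15 (SE 0.14). Pdcd10, a member of the cerebral cavernous malformation complex that restrains the kinase cascade above KLF2 and KLF4, had 0.18 (SE 0.19). Adjusted p of S1pr1, Piezo1 and Pdcd10 was 0.86 to 0.89 in edgeR. Ccm2 of the same complex (-0.02, SE 0.20) and its partner Heg1 (-0.14, SE 0.17) lay below 0 and count among the 13. Their edgeR adjusted p was 0.996 and 0.90.

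The list of the cascade that leads to MEF2 also holds genes of the deacetylase brake on it. In this pooled list 8 of 11 genes lay below 0 (median log2 fold change -0.20, none called). Those below 0 include Ywhab (-0.29) and Ywhaz (-0.20), which are neither kinase nor MEF2 genes. Of the MEF2 genes, Mef2a (-0.09) lay below 0, and Mef2c (0.05) and Mef2d (0.22) above. The kinase genes in their order were Map3k3 (MEKK3) with 79.7 ± 5.82 CPM in CSE-KO and 96.7 ± 16.7 CPM in WT, Map2k5 (MEK5) with 105 ± 11.0 and 129 ± 17.5 CPM, and Mapk7 (ERK5) with 67.2 ± 10.8 and 87.9 ± 24.7 CPM (SD, n = 3 each). Their log2 fold changes were -0.30 (SE 0.22), -0.25 (SE 0.19) and -0.43 (SE 0.24), with edgeR adjusted p of 0.74 to 0.82. A distal peak of Hdac7, a class IIa deacetylase that holds MEF2 in check, lay above 0. It had 80.1 ± 13.7 CPM in CSE-KO and 55.6 ± 19.1 CPM in WT (log2 fold change 0.57, SE 0.27, edgeR adjusted p = 0.68). The promoter peak of Hdac4, another deacetylase gene of the list, lay below 0. It had 77.7 ± 17.0 CPM in CSE-KO and 96.5 ± 5.80 CPM in WT (-0.28, SE 0.22, edgeR adjusted p = 0.83).

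Of genes known to respond to KLF2 and KLF4 in endothelium, 9 of 15 lay below 0 (median log2 fold change -0.05, none called). Edn1, which encodes the vasoconstrictor endothelin-1, had 172 ± 9.49 CPM in CSE-KO and 139 ± 17.3 CPM in WT (log2 fold change 0.28, SE 0.17, edgeR adjusted p = 0.77). Asl, which makes arginine, the substrate of eNOS, had 21.6 ± 6.37 and 40.0 ± 1.79 CPM in CSE-KO and WT (-0.84, SE 0.36, edgeR adjusted p = 0.64). Timp3, an inhibitor of matrix proteases, had 94.9 ± 6.86 and 125 ± 18.3 CPM (-0.42, SE 0.19, edgeR adjusted p = 0.68). Klf6, a KLF factor that stands in this list and in the family list, had 246 ± 25.4 and 313 ± 20.9 CPM (-0.33, SE 0.14, edgeR adjusted p = 0.64).

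Partners and regulators of eNOS were evenly divided, with 9 of 17 below 0 (median log2 fold change -0.01, none called, none at an unadjusted p under 0.05 in edgeR). Nosip, a protein that binds eNOS, had 64.4 ± 10.5 CPM in CSE-KO and 43.8 ± 20.8 CPM in WT (0.47, SE 0.29, edgeR adjusted p = 0.78). Calm3, a calmodulin gene, had -0.27 (SE 0.20), Hsp90aa1, a chaperone of eNOS, -0.27 (SE 0.23), and Spr, which makes the cofactor tetrahydrobiopterin, -0.50 (SE 0.44). Adjusted p of these 3 was 0.82 to 0.86 in edgeR.

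The other KLF genes split evenly, 4 above and 4 below 0 among 8 with a peak (median log2 fold change 0.01, none called). Beside Klf6 the smallest p were those of Klf7 (-0.22, SE 0.14), Klf5 (0.50, SE 0.41) and Klf9 (0.20, SE 0.22), with edgeR adjusted p of 0.78 to 0.90. Per length, the Klf6 peak was the densest of the family, with 168 CPM per kb in CSE-KO and 214 in WT, above 99.9% of all peaks. The Klf7 promoter peak followed, above 96.0% of all peaks, and the Klf4 start, above 88.9%, came after it. The Klf13 (80.0 CPM per kb in CSE-KO and 69.5 in WT) and Klf10 (74.9 and 73.7) promoter peaks lay between the Klf4 and the Klf2 starts. The Klf9 promoter peak (63.2 and 59.1) was level with the Klf2 start (64.5 and 57.6), each above 66.8% of all peaks.

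**Figure D4:**
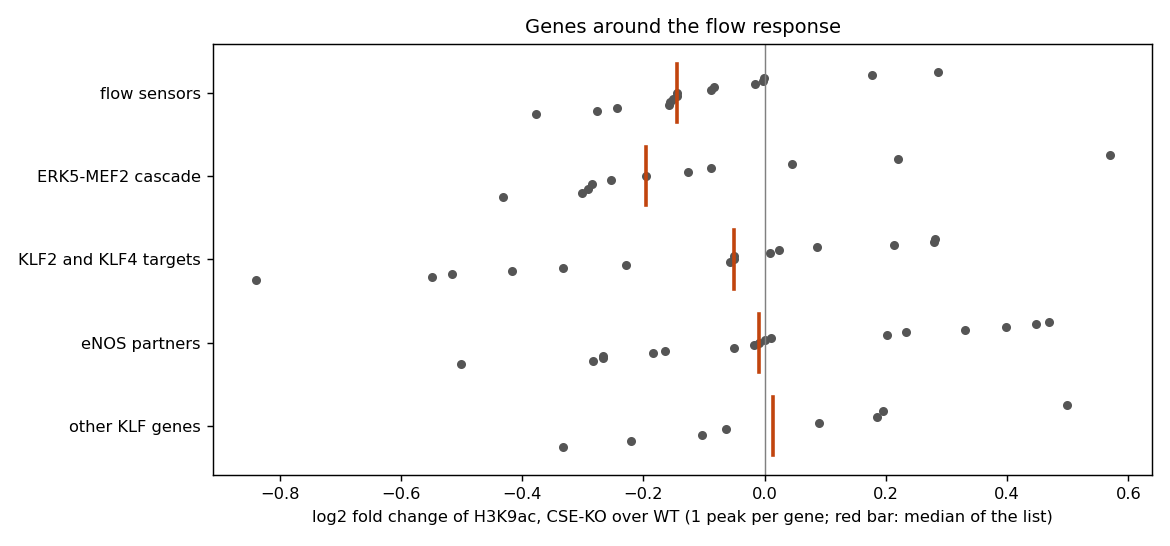
Log2 fold change of H3K9ac, CSE-KO over WT (x axis), of the peak with the highest mean count of each gene (dots) in the 5 lists of the flow response (y axis), with the median of each list as a red bar. The lists of flow sensors and of the cascade to MEF2 with its deacetylase brake have their medians at -0.14 and -0.20. No gene passed the adjusted threshold.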

How the data were processed

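H3K9ac CUT&RUN libraries, 3 of CSE-KO and 3 of WT lung endothelial cells, were grouped by the labels. Reads went through Trimmomatic 0.39, STAR 2.7.11a and Picard 3.1.1, with featureCounts and DESeq2 1.36.0 also named, per the submitters' processing notes, while no peak caller is named. The values used are raw counts for 1 common set of peaks in each library, as the authors deposited them. The other 12 columns of per-library values were not used; the prefixes in their names differ between the groups, and what they stand for is not given and cannot be told apart from genotype. The notes name mm39, but the implied starts lay within 100 bp of RefSeq gene ends on GRCm38.p6 for 67.3% of peaks (median gap 4.5 bp) and within 3.5 bp at the 9 peaks.

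Counts were fitted with edgeR 4.0.16 in R 4.3.3 (glmQLFit and glmQLFTest on group alone, two-sided, TMM factors, filterByExpr at min.count 10, Benjamini-Hochberg, threshold 0.05) over 16134 peaks, checked on simulated data. Intervals are 95%, from the quasi-likelihood F. Alternatives were a mean count of at least 50, no filter on counts, RLE factors, library size alone, DESeq2 1.42.0, limma-voom (limma 3.58.1), the replicate block and each library left out. Replicates of a group differed by more than sampling noise in every pair (chi-square over its degrees of freedom 1.87 to 2.15). A peak counts as a promoter peak if annotated so or centred at most 1 kb from a start. All peaks of the 3 genes are named, with up to 4 genes per list of smallest p. Further genes of the flow sensor and MEF2 lists are named to show other members of the same groups. Promoter sequences were found for 2 of the 3 genes. Members and lists were chosen with earlier results of these data known.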

Additional observations from a re-analysis of the deposited data

How the results depend on the processing

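No peak of Klf2, Klf4 or Nos3, no summed gene and no list gene passed the threshold under any alternative run, and a mean count of 50 or more left none of the 9 peaks to test. Signs turned at 5 of the 8 peaks. The log2 fold change of the Klf2 start was -0.0070 with limma-voom and -0.19 to 0.33 with single libraries left out. That of the Klf4 peak at 200.6 kb was -0.0042 with the replicate block and -0.24 to 0.29 with single libraries left out. With single libraries left out, the Klf4 start ran from -6.61e-07 to 0.41, the Nos3 start from -0.023 to 0.44, the upstream Nos3 peak from -0.10 to 0.32, the summed Klf2 peaks from -0.36 to 0.019 and S1pr1 from -0.43 to 0.00024. The difference in promoter share ran from -2.32 to 2.73 percentage points at Klf4 and from -1.30 to 11.9 at Nos3. The cause of these turns was not tested. Among the other list genes named by smallest p no sign turned, but sizes moved. With single libraries left out, Klf9 ran from 0.016 to 0.43, Spr from -0.96 to -0.23 and Hsp90aa1 from -0.41 to -0.096. Likewise Nosip ran from 0.25 to 0.82, Pdcd10 from 0.061 to 0.31 and Piezo1 from -0.24 to -0.055. Map3k3 ran from -0.37 to -0.14, Calm3 from -0.35 to -0.13 and Klf7 from -0.29 to -0.12. Hdac7 ran from 0.32 to 0.76, Mapk7 from -0.58 to -0.25 and Map2k5 from -0.33 to -0.17. The summed Klf4 peaks ran from 0.074 to 0.38 and the summed Nos3 peaks from 0.011 to 0.30. The Klf4 sum with peaks within 50 kb of the start alone, chosen after seeing the data, was 0.20. Only the Klf4 start peak lies within that distance, so this value is no separate check of the sum. Without the filter the Klf4 peak at 494.5 kb had 0.28 (edgeR adjusted p = 0.95).

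The count of all called peaks, 14, was 7 with DESeq2, 8 with a mean count of 50 or more and 6 to 13 with single libraries left out. Libraries share only a replicate number: deviations of same-numbered libraries correlated at 0.065, 0.014 and 0.0051 across peaks. The replicate block gave 15 called peaks, 0 of them at the 3 genes. Not every library correlated best with its own number. With 3 to 104 counts per peak and library, the intervals of single peaks leave room for changes of up to nearly 2-fold, and at the upstream Nos3 peak beyond it.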
